A study of Arabidopsis thaliana with 53 samples.

Results

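The 10 genes described here encode steps of chlorophyll synthesis from the first committed enzyme to the light-driven reduction of protochlorophyllide, together with GUN4, the regulator of Mg-chelatase. They were chosen by gene identifier, and all 10 were found among the 27501 genes of the count table and passed the filter on low counts in every fit. The libraries came from mature rosette leaves of single *Arabidopsis thaliana* plants, grown with 16 h of light per day at 22 °C. All 44 plants other than the DMSO controls descended from M1 seedlings that were grown on 160 µM etoposide, a topoisomerase II inhibitor that causes double-stranded DNA breaks, for 2 weeks and then selfed to the M3 generation. The 9 DMSO plants descended from M1 seedlings given solvent alone, and came from 3 control lines; their labels give the M2 generation and the study's methods M3, so their generation is in doubt.

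Each line goes back to 1 treated M1 plant. Line 13B gave 6 *virescent* plants, whose greening is delayed, and 4 relatives without the phenotype. The study describes less chlorophyll in juvenile *virescent* plants and normal colour in adult ones, and the leaves sampled were mature. Line 1A gave 6 *BR-like dwarf* plants and 4 relatives, and line 34C gave 6 *short-internode dwarf* plants and 4 relatives. Line 5A gave 1 white plant, 3 green plants with *variegated* progeny and 10 green plants without such progeny. In the first 3 of these lines, the plants with the phenotype and the relatives belong to different M2 families, so phenotype and family cannot be told apart. The plant labelled *virescent*, replicate 1, is listed by the study elsewhere as a relative, and the label was kept.

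Chlorophyll is built in the plastid from 5-aminolevulinic acid, and the pathway branches at protoporphyrin IX, where insertion of magnesium leads to chlorophyll and insertion of iron leads to heme. HEMA1 is a glutamyl-tRNA reductase at the entry of the pathway. Mg-chelatase consists of the porphyrin-binding subunit CHLH, also called GUN5, and the ATPase subunits CHLI, with the copies CHLI1 and CHLI2, and CHLD, and GUN4 binds porphyrins and stimulates it. CHLM then methylates magnesium protoporphyrin IX, CRD1 belongs to the cyclase that closes the last ring, and the protochlorophyllide oxidoreductases PORB and PORC need light for each turnover. GUN4 and GUN5 were named after mutants in which signalling from damaged plastids to the nucleus is uncoupled, and free intermediates of the pathway are phototoxic, which makes its control a classic subject in greening leaves. In TAIR10.1 coordinates, HEMA1 is AT1G58290 at chr1:21623700-21626402, GUN4 is AT3G59400 at chr3:21948501-21949796, CHLH is AT5G13630 at chr5:4387307-4392429, CHLI1 is AT4G18480 at chr4:10201672-10203469, CHLI2 is AT5G45930 at chr5:18627950-18629697. CHLD is AT1G08520 at chr1:2696381-2701022, CHLM is AT4G25080 at chr4:12876822-12878703, CRD1 is AT3G56940 at chr3:21076505-21078443, PORB is AT4G27440 at chr4:13725546-13727440 and PORC is AT1G03630 at chr1:907523-909650.

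The regions upstream of 4 genes that were higher in *virescent* plants are printed because these genes moved together. Each sequence covers the 250 bases before the annotated start of the gene, read 5′ to 3′ along the gene from RefSeq's TAIR10.1 genome. The positions are chr3:21949797-21950046 on the minus strand for GUN4, chr5:4392430-4392679 on the minus strand for CHLH, chr3:21076255-21076504 on the plus strand for CRD1 and chr4:13725296-13725545 on the plus strand for PORB. Capitals mark the 4 motifs searched on both strands, which are the G-box CACGTG, the CCAAT motif CCAATC, the I-box GATAAG and the evening element AAAATATCT, and none of these letters overlap one another in the sequences.
GUN4: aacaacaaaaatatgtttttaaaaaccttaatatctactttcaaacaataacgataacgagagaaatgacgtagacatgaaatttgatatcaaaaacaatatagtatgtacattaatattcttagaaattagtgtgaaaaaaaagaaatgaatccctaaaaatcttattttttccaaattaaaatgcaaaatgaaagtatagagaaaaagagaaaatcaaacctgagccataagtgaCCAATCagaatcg
CHLH: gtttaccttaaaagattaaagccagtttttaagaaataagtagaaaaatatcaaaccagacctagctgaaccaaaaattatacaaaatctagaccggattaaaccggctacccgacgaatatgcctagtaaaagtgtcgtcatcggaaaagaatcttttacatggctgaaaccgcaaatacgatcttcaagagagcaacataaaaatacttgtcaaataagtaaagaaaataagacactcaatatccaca
CRD1: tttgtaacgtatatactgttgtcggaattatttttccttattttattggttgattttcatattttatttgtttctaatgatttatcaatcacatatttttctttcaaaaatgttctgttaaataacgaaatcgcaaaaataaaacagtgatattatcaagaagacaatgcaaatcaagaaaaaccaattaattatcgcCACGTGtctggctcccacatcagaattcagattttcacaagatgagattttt
PORB: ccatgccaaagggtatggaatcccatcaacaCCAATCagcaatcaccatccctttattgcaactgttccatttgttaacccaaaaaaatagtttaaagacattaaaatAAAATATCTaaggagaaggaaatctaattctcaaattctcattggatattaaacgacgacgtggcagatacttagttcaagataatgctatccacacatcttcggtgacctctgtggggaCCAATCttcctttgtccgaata
CCAATC was found upstream of GUN4, 13 bases before the start, and at 2 positions upstream of PORB, and 10.2% of the upstream regions of 27443 protein-coding genes hold it. The G-box was found upstream of CRD1, 52 bases before the start, and in 6.49% of all regions. The evening element was found upstream of PORB and in 2.36% of all regions. The I-box was found in none of the 10 regions and in 12.3% of all. CHLH, HEMA1, CHLI1, CHLI2, CHLD, CHLM and PORC had none of the 4 motifs in this window. A match describes letters and does not show that a factor binds there.

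Total counts were between 29739361 and 116654254 per library, with a median of 47326147. Levels are given as CPM, the usual share of a library's total count scaled to a common depth, after trimmed mean of M-values (TMM) scaling over all 53 libraries. In bulk leaf tissue, fewer cells of a type and less RNA per cell cannot be told apart. Of the libraries that the study's authors left out of their own tests, 4 could be identified, which were *virescent* relative replicate 4, *short-internode dwarf* relative replicates 1 and 2, and DMSO replicate 2. They are left out of the tests of the first 3 lines here and drawn as open circles. *Short-internode dwarf* relative replicate 2 held the lowest level of 6 of the 10 genes among all 53 libraries. The white plant held the lowest level of 3, which were CHLH, PORB and PORC.

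Per kilobase of the longest annotated transcript, the median level over the 53 libraries was highest for CRD1, with 196 CPM per kb, followed by CHLM with 178 and PORB with 165. CHLI1 had 110, PORC 95.3, CHLD 77.5, CHLH 77.3 and GUN4 55.8 CPM per kb, and HEMA1 and CHLI2 were lowest with 23.6 and 23.4. The ranges of neighbours in this order overlapped over the libraries. The highest level was 25 times the lowest for PORB and 14 times the lowest for GUN4, against 2.95 times for CHLD. The SD of the level on the log2(CPM + 1) scale was 1.10 for PORB, 0.82 for GUN4, 0.80 for CHLH, 0.75 for HEMA1 and 0.67 for CRD1, and between 0.34 and 0.58 for the other 5 genes.

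**Figure D1:**
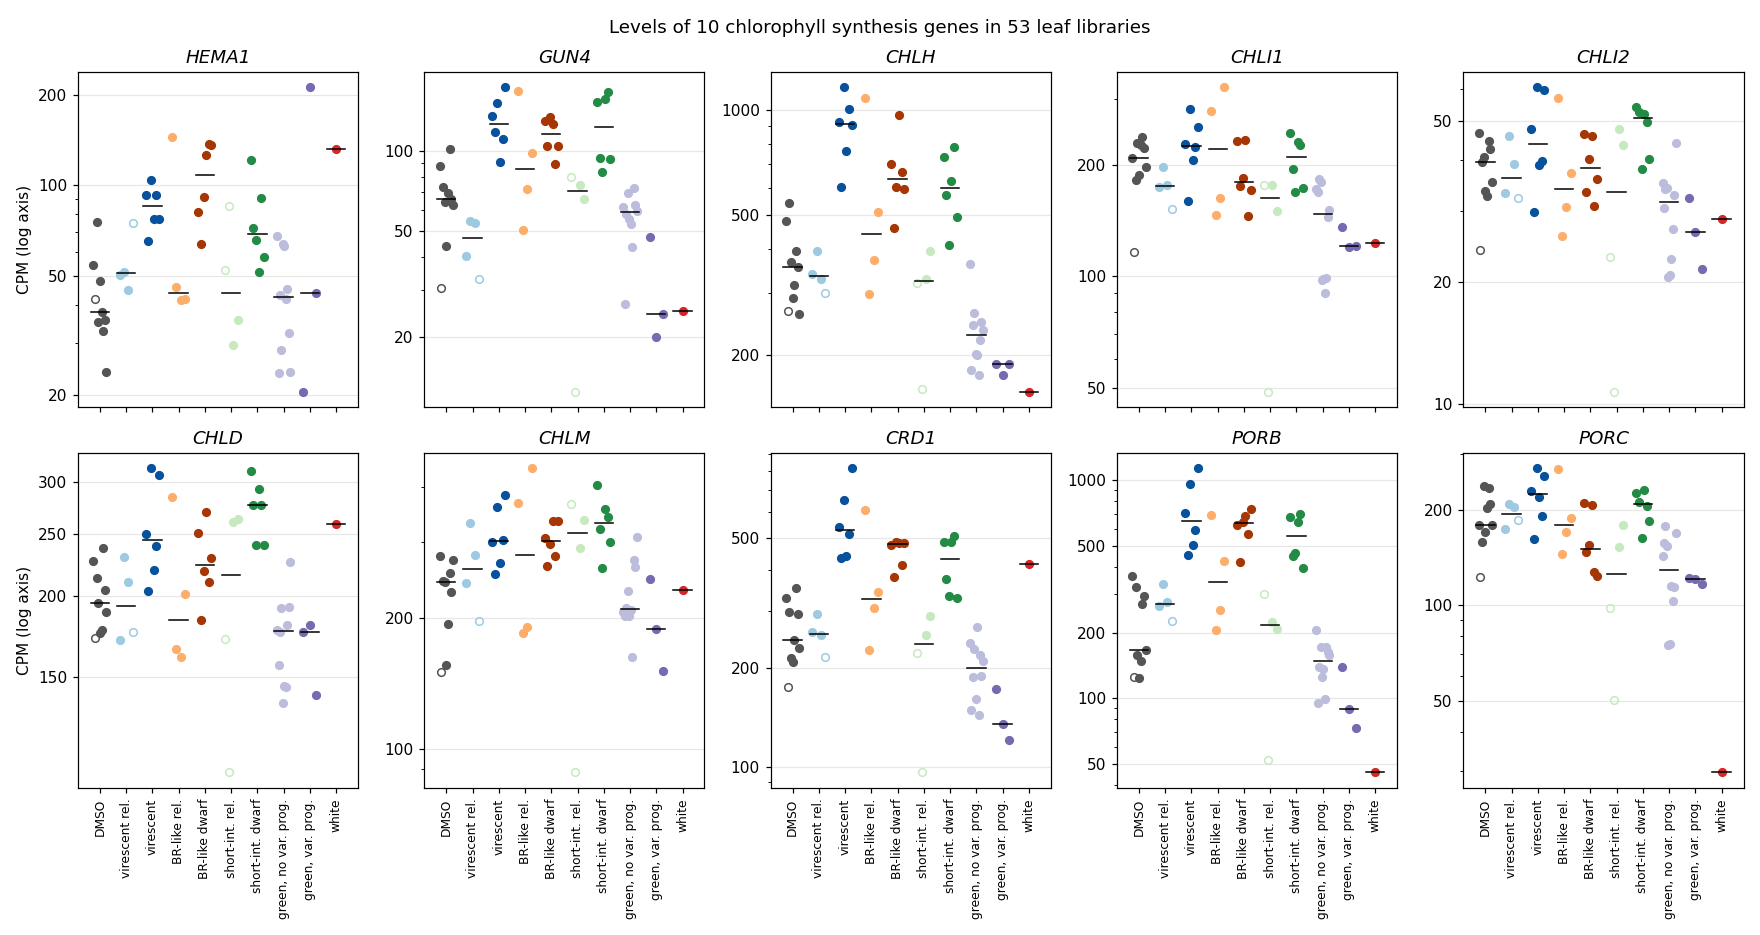
Levels of the 10 genes in 53 leaf libraries, as CPM on a log axis, by group. Points are single plants, open circles are libraries that the authors left out, and bars are medians. HEMA1, GUN4, CHLH, CRD1 and PORB lay higher in all 6 *virescent* plants than in the 3 relatives drawn as filled circles, and PORB, PORC and CHLH were lowest in the white plant.

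In *virescent* plants, 5 of the 10 genes were more abundant than in relatives without the phenotype at an adjusted p below 0.05 (quasi-likelihood test of edgeR, Benjamini-Hochberg adjusted over 19317 genes), and none was less abundant. Among all genes tested, 8.53% were higher and 8.5% were lower. The 5 genes were HEMA1, GUN4, CHLH, CRD1 and PORB, and their levels did not overlap between 6 *virescent* plants and 3 relatives, a separation in this direction that 14.5% of all genes showed. At a stricter call, an adjusted p below 0.01 with a log2 fold change above 1, 3 genes remained, GUN4, CHLH and CRD1, against 1.1% of all genes. The median log2 fold change of the 10 genes was 0.56, against 0.00 over all genes tested.

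HEMA1, at the entry of the pathway, lay between 65.1 and 104 CPM in *virescent* plants, with a median of 85.3. The relatives held 50.2, 51.6 and 44.9 CPM, and the left-out relative held 74.9 CPM. The left-out relative thus lay among the *virescent* plants, while the other 3 lay below all of them. The log2 fold change was 0.80 ± 0.26 (SE), with an adjusted p of 0.0477 from edgeR, and it missed the threshold with all labelled libraries, where it was 0.62 with an adjusted p of 0.0700.

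GUN4 ranged from 91.4 to 174 CPM in *virescent* plants, with a median of 127. The relatives held 40.2, 54.5 and 53.9 CPM, and the left-out relative 33 CPM. Every *virescent* plant lay above every relative, the left-out plant included. The mean was 130.5 ± 29.9 CPM (SD, n = 6) against 49.5 ± 8.07 CPM (SD, n = 3), and the log2 fold change was 1.40 ± 0.23 (SE), with an adjusted p of 0.00133 from edgeR. *Virescent* replicate 6 held the highest GUN4 level of all 53 libraries.

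Among the subunits of Mg-chelatase, only CHLH passed the test. CHLH ranged from 603 to 1161 CPM in *virescent* plants, with a median of 914, while the relatives held 341, 396 and 330 CPM and the left-out relative 300 CPM. No level overlapped, and the log2 fold change was 1.33 ± 0.23 (SE), with an adjusted p of 0.00153 from edgeR. The ATPase subunits overlapped between the groups. CHLI1 had medians of 225 and 177 CPM in *virescent* plants and 3 relatives, with a log2 fold change of 0.30 and an adjusted p of 0.139. CHLI2 had a log2 fold change of 0.22, with an adjusted p of 0.426, and CHLD had 0.33, with an adjusted p of 0.119.

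CHLM, the methyltransferase that follows Mg-chelatase, gave a log2 fold change of 0.13 ± 0.17 (SE), with an adjusted p of 0.62, and its levels overlapped. CRD1, which acts after it, ranged from 434 to 815 CPM in *virescent* plants, with a median of 527. The relatives held 258, 293 and 252 CPM, and the left-out relative 217 CPM. All relatives lay below all *virescent* plants, and the log2 fold change was 1.08 ± 0.21 (SE), with an adjusted p of 0.00308 from edgeR.

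The light-dependent reductases differed from each other. PORB ranged from 454 to 1140 CPM in *virescent* plants, with a median of 648, and the relatives held 265, 336 and 278 CPM, with 225 CPM in the left-out plant. All *virescent* plants lay above all relatives, and the log2 fold change was 1.31 ± 0.36 (SE), with an adjusted p of 0.0224 from edgeR. PORC ranged from 162 to 270 CPM in *virescent* plants against 208, 173 and 204 CPM in the relatives, which lay within that range. Its log2 fold change was 0.18 ± 0.16 (SE), with an adjusted p of 0.439.

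Only 3 relatives enter this comparison, and the call on PORB rests on each of them. Without relative replicate 1, 2 or 3, the count fell to 3 genes, which were GUN4, CHLH and CRD1 each time. PORB stayed called in 6 of the 9 fits that left out a single *virescent* plant or relative. HEMA1 stayed called in 1 of the 9, so its call was also lost without most single *virescent* plants. Without *virescent* replicate 1, whose label is in doubt, 4 genes passed, among them PORB. The *virescent* plants came from a pair of M2 families. GUN4 averaged 135 CPM in family 13B_25 and 126 CPM in family 13B_46, CHLH 895 and 892 CPM, and PORB 709 and 745 CPM.

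Other markers moved with these genes. The summed level of 7 wound and chitin response genes lay between 158 and 347 CPM in *virescent* plants and between 622 and 845 CPM in the 3 relatives, with 6317 CPM in the left-out relative, and 5 of the 7 were lower in *virescent* plants. LHCA1, a light-harvesting protein of photosystem I and 1 of 5 mesophyll markers, was higher in *virescent* plants with a log2 fold change of 0.94. All 5 mesophyll markers had a log2 fold change above 0, with a median of 0.80. Of them, 4 had an unadjusted p below 0.05, as did 6371 of all 19317 genes. Their summed level lay between 54770 and 94430 CPM in *virescent* plants and between 25520 and 49290 CPM in the 4 relatives, with no overlap. The list of 7 greening regulators held 1 gene that was higher and 1 that was lower at an adjusted p below 0.05. Within it, GLK1, a transcription factor of chloroplast development, was higher by 0.49 on the log2 scale, and CGA1, a GATA factor of greening, fell by 1.86. None of 9 clock genes passed at an adjusted p below 0.05, and 1 did at an unadjusted p below 0.05. The part of these markers in the result was not tested.

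Against DMSO plants, 7 of the 10 genes were higher in *virescent* plants and none was lower, where 8.41% of all genes tested were higher and 10.3% lower. They were HEMA1, GUN4, CHLH, CHLD, CHLM, CRD1 and PORB. GUN4 lay between 44.1 and 102 CPM in 8 DMSO plants, with a median of 68.0, and DMSO replicate 2, left out, held 30.7 CPM. The highest DMSO plant thus lay above the lowest *virescent* plant, and the log2 fold change was 0.87 ± 0.17 (SE), with an adjusted p of 0.00216 from edgeR. PORB had the largest log2 fold change of the 10, 1.66 ± 0.26 (SE), with an adjusted p of 0.000557. CHLH gave 1.25, CRD1 1.07 and HEMA1 0.99, and CHLD and CHLM gave 0.34 and 0.42, with adjusted p-values of 0.0347 and 0.0336. CHLD stayed called in 6 and CHLM in 8 of the 14 fits that left out 1 library, and the other 5 genes in all 14. Levels of 3 genes, CHLH, CRD1 and PORB, did not overlap between *virescent* and DMSO plants, a separation seen in 2.46% of all genes in this direction, and 3 genes passed the stricter call, against 1.05% of all. Of the 9 clock genes, 5 were higher and 1 was lower in *virescent* than in DMSO plants, and 5 of the 7 wound and chitin genes were lower. Of the 5 mesophyll markers, 2 were higher, and their summed level lay above that of every DMSO plant, the highest of which held 43270 CPM. The part of these markers was not tested.

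The *virescent* relatives did not differ from DMSO plants in any of the 10 genes at an adjusted p below 0.05 with edgeR or DESeq2, where 2.88% of all genes did with edgeR. GUN4 was the 1 gene of the 10 with an unadjusted p below 0.05, as 3644 of 19317 genes had. It averaged 49.5 CPM in the relatives and 71.4 CPM in DMSO plants. Its log2 fold change was -0.52 ± 0.21 (SE), with an adjusted p of 0.195 (edgeR). The comparisons with DMSO share the DMSO plants between the lines.

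**Figure D2:**
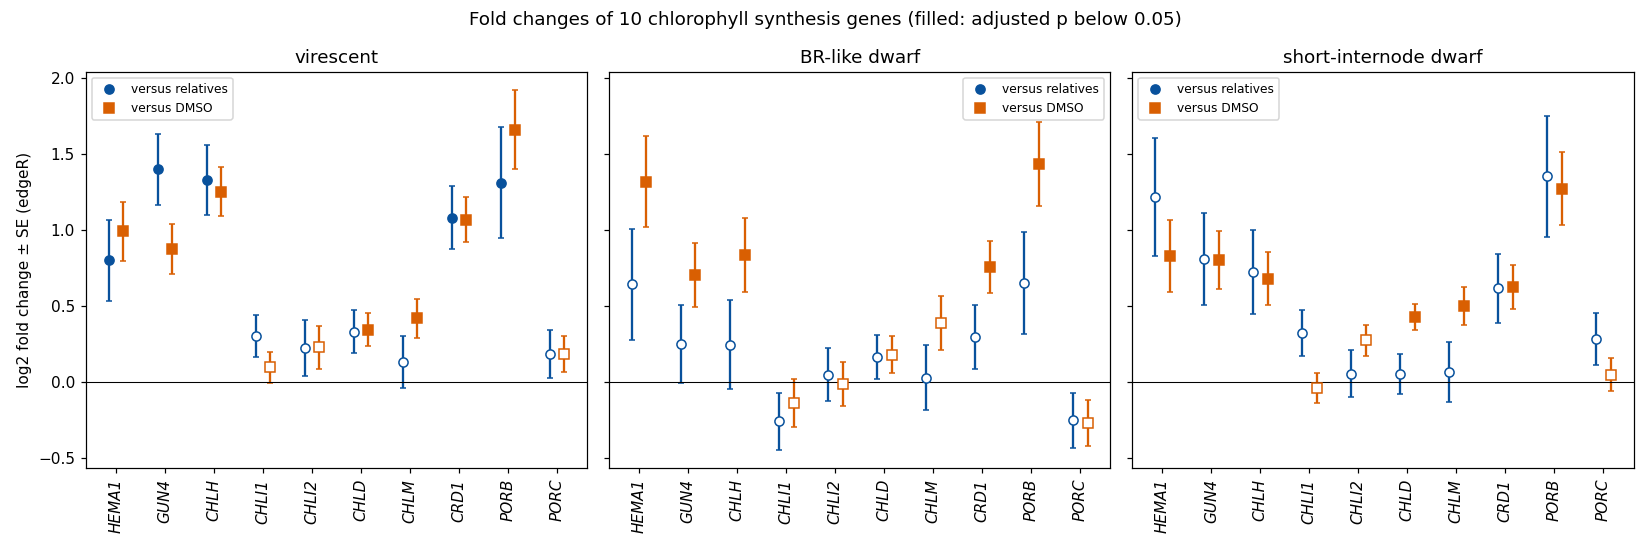
Log2 fold changes of the 10 genes with their SE from edgeR, for plants with the phenotype against relatives (circles) and against DMSO plants (squares) in 3 lines. Filled symbols have an adjusted p below 0.05. Against relatives, 5 symbols are filled in the *virescent* line and 0 in the others, and the 3 comparisons with DMSO share the same DMSO plants.

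In *BR-like dwarf* plants, none of the 10 genes differed from relatives at an adjusted p below 0.05 with edgeR or DESeq2, where 1.96% of all genes did with edgeR, and none had an unadjusted p below 0.05. The relatives were spread widely. GUN4 held 168.5, 50.7, 72.4 and 98.9 CPM in the 4 relatives and between 89.9 and 135 CPM in *BR-like dwarf* plants, and CHLH held 1078, 299, 372 and 512 CPM in the relatives. Relative replicate 1 was among the 5 highest of all 53 libraries for 9 of the 10 genes, and it lay above every *BR-like dwarf* plant for GUN4 and CHLH. The log2 fold changes were 0.25 for GUN4, 0.24 for CHLH, 0.65 for PORB and 0.64 for HEMA1. Without relative replicate 1, HEMA1 passed with a log2 fold change of 1.3 and an adjusted p of 0.0460.

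Against DMSO plants, 5 genes were higher in *BR-like dwarf* plants, HEMA1, GUN4, CHLH, CRD1 and PORB, where 7.94% of all genes were higher and 6.5% lower, and 2 passed the stricter call, against 1.72% of all. PORB gave a log2 fold change of 1.43 ± 0.28 (SE), with an adjusted p of 0.00289, and HEMA1 gave 1.32 ± 0.30 (SE), with an adjusted p of 0.00751 (edgeR). PORB lay between 421 and 741 CPM in *BR-like dwarf* plants and did not overlap with the DMSO plants, whose highest level was 362 CPM, and in all 2 genes separated in this direction, against 1.78% of all genes. PORC was not called and had a log2 fold change of -0.27. Without *BR-like dwarf* replicate 4, or without DMSO replicate 5, 6 or 9, 3 genes passed, HEMA1, CRD1 and PORB. GUN4 stayed called in 5 of the 14 fits that left out 1 library, with adjusted p-values up to 0.0767, and CHLH in 9 of 14. Of the wound and chitin genes, 5 of 7 were lower, and 3 of the 9 clock genes and 2 of the 5 mesophyll markers were higher. The summed mesophyll level lay between 43570 and 63860 CPM, against 18780 to 43270 CPM in DMSO plants. The part of these markers was not tested.

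In *short-internode dwarf* plants, none of the 10 genes differed from the 2 relatives that were kept at an adjusted p below 0.05 with edgeR, where 0.12% of all genes did. An unadjusted p below 0.05 was seen for 6 of the 10, and for 1739 of all 19243 genes. DESeq2 called PORB, and over 19236 genes it called 116 higher and 90 lower. Levels of 5 genes did not overlap between the 6 plants and the 2 relatives, with all 6 plants higher, where 9.15% of all genes separated in this direction. GUN4 lay between 83.5 and 166 CPM in *short-internode dwarf* plants, with a median of 124, and held 74.9 and 66.3 CPM in the relatives. The left-out relatives held 80.2 and 12.5 CPM. All relatives thus lay below all *short-internode dwarf* plants, and the log2 fold change was 0.81 ± 0.30 (SE), with an adjusted p of 0.414. With all labelled libraries, CHLH, CRD1 and PORB passed, where 206 of 19391 genes were higher and 739 lower.

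Against DMSO plants, 7 genes were higher in *short-internode dwarf* plants, HEMA1, GUN4, CHLH, CHLD, CHLM, CRD1 and PORB, where 7.75% of all genes were higher and 9.39% lower, and 1 passed the stricter call, against 0.774% of all. PORB gave 1.27 ± 0.24 (SE) on the log2 scale, with an adjusted p of 0.00430, and GUN4 gave 0.80 ± 0.19 (SE), with an adjusted p of 0.0127 (edgeR). CHLD and CHLM gave 0.43 and 0.50. The relatives that were kept gave a similar 0.38 and 0.43 for these genes against DMSO plants, though neither was called there. Between *short-internode dwarf* plants and these relatives, the log2 fold changes were 0.05 and 0.06. With all labelled libraries only CHLH and PORB passed, 2 of 10, where 586 of 19391 genes were higher and 407 lower. In this comparison 3 of the 7 wound and chitin genes were lower, and 2 of the 9 clock genes and 2 of the 5 mesophyll markers were higher. The summed mesophyll level lay between 45720 and 74590 CPM, above all DMSO plants, and the part of these markers was not tested. In relatives of both dwarf lines, none of the 10 genes differed from DMSO plants at an adjusted p below 0.05 (edgeR, DESeq2). Of all genes, edgeR called 0.0102% for the *BR-like dwarf* relatives and 0% for the *short-internode dwarf* relatives. In the same order, DESeq2 called 54 genes higher and 41 lower of 19515, and 308 higher and 612 lower of 19236. In each line, 3 of the 10 had an unadjusted p below 0.05 (edgeR), where 1573 of 19521 and 3511 of 19243 genes did.

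Whether the difference between *virescent* plants and relatives was larger than that of the dwarf lines was tested directly. Against the *BR-like dwarf* line, none of the 10 genes passed with edgeR, where 9.21% of all genes did. An unadjusted p below 0.05 was seen for 3 of the 10, and for 5221 of all 20271 genes. DESeq2 called GUN4 and CHLH, and over all 20271 genes it called 1336 higher and 1364 lower. The difference in log2 fold change was 1.14 ± 0.39 (SE) for GUN4, with an adjusted p of 0.0538, and 1.07 ± 0.36 (SE) for CHLH, with an adjusted p of 0.0510. Left out singly, *BR-like dwarf* relative replicates 2 and 3, *BR-like dwarf* replicates 1 and 4 and *virescent* replicates 2 and 4 each gave a count between 1 and 3. Against the *short-internode dwarf* line, none passed with edgeR or DESeq2 and none had an unadjusted p below 0.05, where 1.92% of all genes passed with edgeR. The difference was 0.57 ± 0.43 (SE) for GUN4 and -0.07 ± 0.48 (SE) for PORB.

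Ratios within a library set pairs of these genes side by side. Per kilobase of transcript, CHLH was between 1.64 and 2.34 times the level of CHLD in *virescent* plants, between 0.873 and 1.11 times in the 4 relatives, and between 0.771 and 1.42 times in DMSO plants. The *virescent* plants lay above all of these. They overlapped with *BR-like dwarf* plants, between 1.40 and 1.99 times, and with the relatives of that line, between 1.00 and 2.10 times. *Short-internode dwarf* plants lay lower, between 0.958 and 1.58 times. PORB was between 2.50 and 4.85 times the level of PORC in *virescent* plants and between 1.33 and 1.76 times in the 4 relatives. In *BR-like dwarf* plants this ratio was between 3.12 and 6.52, and in *short-internode dwarf* plants between 2.33 and 3.71, both overlapping with *virescent* plants. In DMSO plants it was between 0.723 and 2.22. CHLI1 was between 4.04 and 5.33 times the level of CHLI2 in *virescent* plants and between 4.11 and 5.01 times in the relatives, with overlap. These ratios were chosen after the fold changes were seen and are given without a test.

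**Figure D3:**
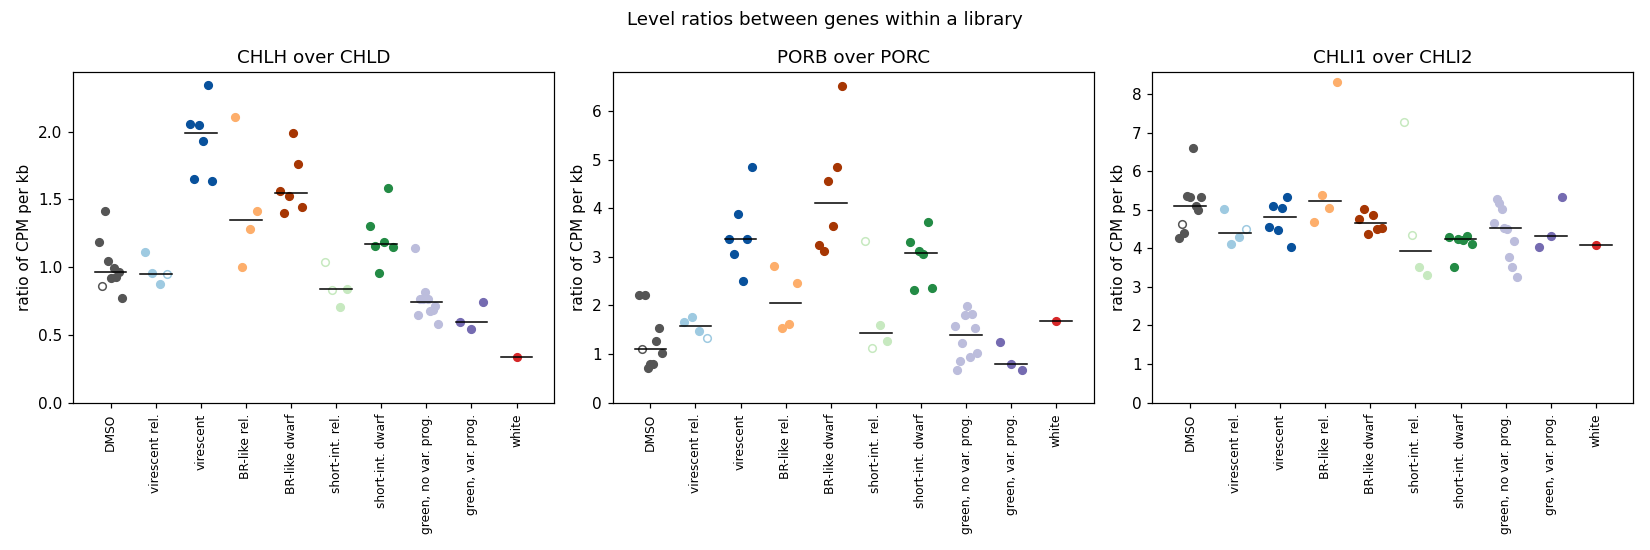
Ratios of CPM per kb between pairs of the genes within a library, by group, on linear axes from 0. Points are plants, open circles are libraries that the authors left out, and bars are medians. CHLH over CHLD lay between 1.64 and 2.34 in *virescent* plants and at 0.339 in the white plant, and CHLI1 over CHLI2 overlapped between groups.

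The white plant of the *variegated* line had no replicate, so its levels are placed within the range of 13 green plants of that line and no test is given. It lay outside that range for 5 of the 10 genes, above it for 2 and below it for 3. Over 19317 genes, 23.3% lay above and 25.4% below the green plants, so these counts are near the background. PORC stood at 29.8 CPM in the white plant, with a 95% Wilson interval of 28.5 to 31.1 CPM that covers counting error only, against 74.9 to 177 CPM in the green plants. PORB stood at 45.7 CPM, against 72.9 to 206 CPM. Both levels were the lowest of all 53 libraries and lay below every green plant.

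CHLH, at 157 CPM, was also below the green plants, the lowest of which held 175 CPM. CHLD, an ATPase subunit of the same enzyme, stood at 258 CPM against at most 226 CPM in green plants, and CRD1 at 415 CPM against at most 268 CPM, so that both lay above every green plant. CHLH over CHLD per kilobase was 0.339 in the white plant, the lowest of all 53 libraries.

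GUN4 stood at 25.2 CPM in the white plant, with 2 of the 13 green plants below it and a range of 20.01 to 72.9 CPM. HEMA1 stood at 132 CPM, which was 3.05 times the median of the green plants, and lay below 1 of them, at 212 CPM. CHLI1, CHLI2 and CHLM, at 123, 28.7 and 233 CPM, lay inside the range of the green plants. The 5 green plants of the same M2 family, 5A_58, are among the 13, so the same 5 genes necessarily lay outside their range. GUN4, HEMA1, CHLI1, CHLI2 and CHLM lay inside that narrower range as well.

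**Figure D4:**
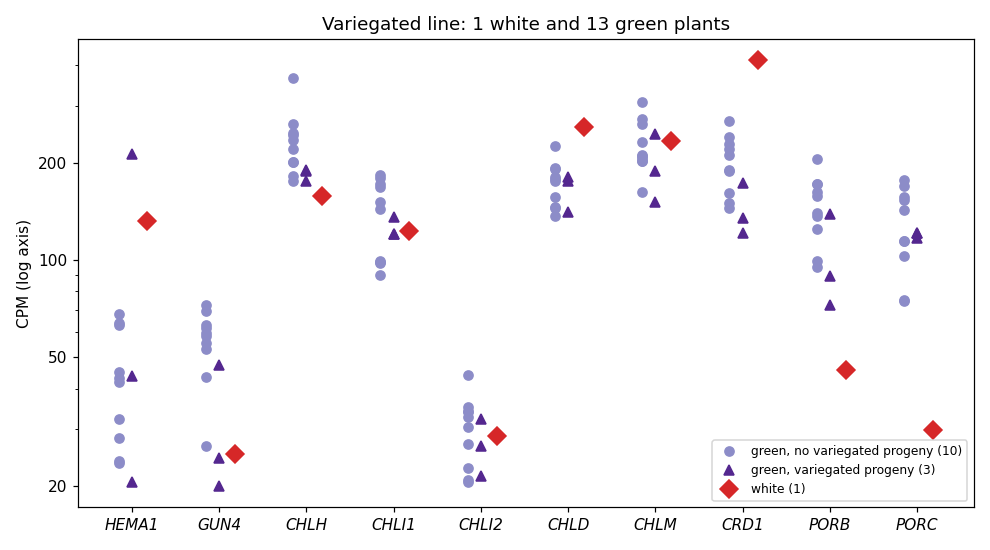
Levels of the 10 genes in the variegated line, as CPM on a log axis. Circles are 10 green plants without variegated progeny, triangles 3 green plants with variegated progeny, and the diamond the white plant. PORB, PORC and CHLH lay below all 13 green plants and CHLD and CRD1 above them.

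The white library also differed in markers of other cell types and of the clock. The summed level of 5 flower genes was 23.4 CPM, against at most 7.57 CPM in the green plants, and that of 4 tapetum and pollen genes was 21.5 CPM, against at most 0.263 CPM, with A9 and TA1 at 0 in all 13 green plants. STM, 1 of 3 shoot meristem genes, stood at 7.48 CPM, against at most 0.108 CPM. The others were near 0, with WUS at 0.181 CPM and CLV3 at 0.0151 CPM, against 0 in the green plants. The summed level of the 3 was 7.68 CPM, and its median in *BR-like dwarf* plants was 8.67 CPM. Of the 5 mesophyll markers, 4 lay below every green plant, among them LHCB1.3 at 2040 CPM against 4817 to 19260 CPM and CA1 at 46.1 CPM against at least 309 CPM, while RBCS1A, at 4818 CPM, lay inside the green range. SUC2, a sucrose transporter of the phloem, stood at 71.2 CPM against 285 to 623 CPM. The clock genes CCA1, PRR9, PRR7, PRR5 and TOC1 lay above all 13 green plants, with PRR7 at 93.8 CPM against at most 31.1 CPM, and the other 4 lay inside. Of the 7 greening regulators, GLK1 stood at 18.2 CPM against at least 145 CPM, and CGA1 at 49.5 CPM against at most 11.7 CPM. HY5 stood at 21.2 CPM against at most 13.0 CPM, and GLK2, PIF3, PIF1 and GNC lay inside the green range. The part of all these markers in the levels of the 10 genes was not tested.

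Among green plants of this line, those with *variegated* progeny did not differ from those without in any of the 10 genes at an adjusted p below 0.05 with edgeR or DESeq2, where 1.83% of all genes did with edgeR. An unadjusted p below 0.05 was seen for 3 of the 10, and for 1802 of all 19785 genes. GUN4 held 47.6, 20.01 and 24.4 CPM in the 3 plants with *variegated* progeny, against 26.7 to 72.9 CPM, with a median of 58.9, in the 10 without. HEMA1 held 20.6, 212 and 43.8 CPM in these 3 plants, against 23.7 to 68.0 CPM. Replicate 2 held the highest HEMA1 level of all 53 libraries and replicate 1 the lowest. Without replicate 1, HEMA1 rose by 1.56 and GUN4 fell by 1.36 on the log2 scale, with adjusted p-values of 0.0323 and 0.0303 (edgeR). The summed wound and chitin markers stood at 179, 6339 and 1454 CPM in these replicates, against at most 471 CPM in the 10 other green plants, and their part was not tested.

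Green plants without *variegated* progeny had lower levels of 3 genes than DMSO plants, where 4.27% of all genes were lower and 7.18% higher, and none of the 3 passed the stricter call, as 0.106% of all genes did with lower levels. CHLH fell by 0.63 on the log2 scale, with an adjusted p of 0.0129, CHLI1 fell by 0.52, with an adjusted p of 0.0350, and PORC fell by 0.53, with an adjusted p of 0.0373 (edgeR). CHLH lay between 175 and 365 CPM in the 10 green plants, with a median of 228, and between 262 and 544 CPM in 9 DMSO plants, with a median of 356. The groups overlapped. Without DMSO replicate 4, 6, 7 or 8, or without green replicate 5, 6, 7 or 8, 1 gene passed. The gene that passed each time was CHLH, and CHLI1 and PORC each stayed called in 10 of the 19 fits that left out 1 library. CHLI1 averaged 96.3 CPM in M2 family 5A_3, against 176 CPM in 5A_2 and 148 CPM in 5A_58, and PORC averaged 92.0 CPM, against 158 and 142 CPM, so that family 5A_3 was lowest for both. This fit kept all 9 DMSO plants.

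Beyond the 10 genes, 33 of 34 other genes of tetrapyrrole synthesis and its control passed the filter in the *virescent* fit, and 4 of them were higher in *virescent* plants than in relatives and none lower, where 8.53% and 8.5% of all genes were. PORA, the reductase best known from dark-grown seedlings, was low everywhere. It held between 0.692 and 9.12 CPM in *virescent* plants, with a median of 2.13, against 0.303 to 1.39 CPM in the 4 relatives, and its log2 fold change was 2.30 ± 0.77 (SE), with an adjusted p of 0.0493. CHLP, the geranylgeranyl reductase that makes the phytol tail, gave 0.87, with an adjusted p of 0.0181. HEME1, a uroporphyrinogen decarboxylase, gave 0.83, with an adjusted p of 0.0218, and PPOX1, the protoporphyrinogen oxidase before the branch, gave 0.62, with an adjusted p of 0.00118 (edgeR). PPOX1 lay between 110 and 159 CPM in *virescent* plants and between 86.2 and 92.3 CPM in the 4 relatives, with no overlap. Against DMSO plants, 9 of the 33 genes were higher and 1, the ferrochelatase FC1, was lower, where 8.41% and 10.3% of all genes were.

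In the white plant, 17 of the 34 other genes lay outside the range of the green plants, 7 above and 10 below, where the shares over all genes were 23.3% and 25.4%, so these counts are near the background as well. HO3, a heme oxygenase, stood at 0.286 CPM, against at least 6.94 CPM, and FC2, the ferrochelatase at the entry of the heme branch, at 34.9 CPM, against at least 81.5 CPM. HEMF2, a coproporphyrinogen oxidase gene, stood at 34.5 CPM, against at most 8.76 CPM. FLU, which restrains 5-aminolevulinic acid synthesis, stood at 138 CPM, against at most 63.3 CPM.

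Likeness to GUN4 over the 53 libraries was measured by Pearson's r of log2(CPM + 1) among 14095 genes with a mean of at least 5 CPM, as a description without a test. The libraries share groups, families and the plants that stand apart. The 5 most alike genes outside the 10 were CLA1, the entry enzyme of plastid isoprenoid synthesis, with r = 0.92, AT2G34620 with r = 0.91, AT3G18050 with r = 0.90, APE2, the triose phosphate translocator, with r = 0.90, and the tubulin TUB6 with r = 0.88. Among the 10 genes, PORB ranked 3 of all with r = 0.90, CHLH had r = 0.86, CRD1 0.86, CHLM 0.80 and PORC 0.63, and HEMA1 had r = 0.23. Over 48 libraries without the white plant and the 4 left-out libraries, CRD1 had r = 0.92 and HEMA1 0.41.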

How the data were processed

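Leaf RNA was poly(A)-selected, made into stranded libraries and sequenced. The authors trimmed reads with Trim Galore and quantified Araport11 transcripts with Salmon, with the Col-CEN genome as decoy; versions are not given in the sources used here. The deposited table holds estimated counts per gene, not normalized, of which 9.27% of values are not whole, and these were rounded. In the authors' deposited DESeq2 tables only the signal column, the mean normalized count, was used, to identify the libraries that the authors kept; their fold changes and p-values were not used. The study left out 5 libraries, of which 4 were identified. All other *virescent*, dwarf, relative and DMSO libraries were kept in the authors' DESeq2 tables. The *variegated* line has no such table, and all its libraries were used here. The fifth library, if it is in the count table, is thus among those of the *variegated* line, and which one is not known.

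Genes reaching 10 normalized counts in 4 or more libraries were tested with edgeR 4.0.16 in R 4.3.3 (quasi-likelihood, TMM scaling). In each line the plants with the phenotype, relatives and DMSO plants shared 1 fit. DESeq2 1.42.0 was the alternative, and other alternatives covered scaling, filter, organelle genes, left-out libraries, M2 families, a replicate block and a stricter call (adjusted p below 0.01 with a log2 fold change above 1). The SE is the log2 fold change, fitted without a prior count, divided by the square root of edgeR's F statistic. The test was tried first on simulated counts with known changes, set up as *virescent* plants against relatives. There edgeR recovered 16.7% of changes of 0.6 on the log2 scale, 68.7% of changes of 1 and 88.1% of changes of 2. A gene that was not called is thus not shown to be unchanged. Other work used Python 3.11.15 with pandas 2.3.3, numpy 2.4.6, scipy 1.17.1 and matplotlib 3.10.9.

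Replicate numbers come from the labels, which do not say that same-numbered plants form pairs, and the main tests use no pairing. Deviations of same-numbered *BR-like dwarf* plants and relatives correlated in all 4 pairs (0.14 to 0.48), and 3 of the 4 were closest to their own number. Some other comparisons had correlations as high. The replicate block changed no call between *BR-like dwarf* plants and relatives. Whether replicates were grown separately is not stated, so p-values measure the spread between these plants. The members, gene lists and tests were chosen with earlier results of these data known. Outside the 10 genes, genes were named where they were called in *virescent* plants against relatives, lay farthest outside the green range in the white plant (4 genes), or were most like GUN4 (5 genes), and markers where their list is given; FC1 and HEMA2 were added after their values were seen. Genes were matched to TAIR10.1 (27391 of 27501), which gave positions, transcript lengths and upstream sequences.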

Additional observations from a re-analysis of the deposited data

Results flagged for a closer look

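In groups of 4 to 10 plants, 80 combinations of gene and group were examined for a single plant far from the others by Dixon's criterion, and 3 had one. Chance alone gives a few such plants in that many groups. HEMA1 stood at 145 CPM in *BR-like dwarf* relative replicate 1, while the next of the 4 relatives held 45.8 CPM. CHLI1 stood at 116.5 CPM in DMSO replicate 2, below the next of the 9 DMSO plants at 182 CPM. CHLH stood at 365 CPM in replicate 1 of the green plants without *variegated* progeny, above the next of the 10 at 263 CPM.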

How the results depend on the processing

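Counts below are of the 10 genes at an adjusted p below 0.05. For *virescent* plants against relatives, 5 genes became 3 with family 13B_25 alone, 3 with family 13B_46 alone and 3 with the stricter call, and the count ranged from 3 to 6 with single libraries left out. Against DMSO plants, 7 became 4 with family 13B_46 alone and 3 with the stricter call, with 5 to 7 when libraries were left out. For *BR-like dwarf* plants against DMSO, 5 became 3 with the replicate block and 2 with the stricter call, with 3 to 5 when libraries were left out, and against relatives 0 became 0 to 1. For *short-internode dwarf* plants against relatives, 0 became 1 with DESeq2 and 3 with all labelled libraries, and against DMSO 7 became 2 with all labelled libraries, 2 with the replicate block and 1 with the stricter call, with 6 to 8 when libraries were left out. For green plants without *variegated* progeny against DMSO, 3 became 1 with the block and 0 with the stricter call, with 1 to 4 when libraries were left out, and between green plants the range was 0 to 2. For the *virescent* against the *BR-like dwarf* effect, 0 became 2 with DESeq2, 1 with all labelled libraries and 1 with DESeq2's size factors, with 0 to 3 when libraries were left out. The white plant lay outside the green range for 4 to 6 genes under all alternatives run. The labels do not say what same-numbered samples share beyond the number. In *short-internode dwarf* plants and DMSO, where the count fell from 7 to 2, deviations correlated at 0.05 to 0.63 in 5 pairs, 3 of them above 0.1, and 3 of the 5 were closest to their own number; in *BR-like dwarf* plants and DMSO the range was -0.47 to 0.03, in green plants and DMSO -0.55 to 0.61, and in *virescent* plants and DMSO, where 7 became 5, 4 of 5 pairs lay above 0.1. Whether the numbers stand for a shared setting is not known, so a count lost under the block is given without a reading. No called gene changed direction in any alternative, in 465 cases it stayed called and in 86 it missed the threshold. The causes were not tested.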

Other observations

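In green plants of the *variegated* line, 2 of 33 other tetrapyrrole genes tested were higher in those with *variegated* progeny, where 1.83% of all genes differed, and both were highest in replicate 2. FC1, the ferrochelatase known from stress and from non-green tissue, stood at 1284 CPM in that plant and at 84.5 CPM at the median of the 3, against 33.8 to 63.3 CPM in the 10 green plants without such progeny. HEMA2, a further glutamyl-tRNA reductase gene, reached 172 CPM there, with a median of 21.7 CPM over the 3, against 15.6 to 32.9 CPM in the 10. The log2 fold changes were 3.25 and 1.64, with adjusted p-values of 0.00111 and 0.0266 from edgeR.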
